A study of Mus musculus with 29 samples.

Results

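DNA methylation over 9 genes of the T cell receptor (TCR) complex and its proximal signalling was described in mouse lung. The genes were Cd3e (ENSMUSG00000032093), Cd3g (ENSMUSG00000002033), Cd3d (ENSMUSG00000032094), Cd247 (ENSMUSG00000005763), Cd4 (ENSMUSG00000023274), Cd5 (ENSMUSG00000024669), Cd6 (ENSMUSG00000024670), Lck (ENSMUSG00000000409) and Zap70 (ENSMUSG00000026117). Every window that the table names for 1 of them was taken, without regard to its values, which gave 72 of 260686 windows. All 72 had a value in each library and were tested. WGMS, methyl-sequencing of the whole genome after enzymes have converted the unmethylated cytosines, gave a percent methylation (%DNAm) per window of about 50 CpG dinucleotides in 29 libraries of Balb/c mice. The mice were 13-week-old offspring, labelled as female, of dams given intranasal saline (Sham) or fine particulate matter, PM2.5 (PM), before mating, through gestation and until weaning. Offspring were then sensitised and challenged with ovalbumin (OVA), an egg protein that induces allergic airways disease in mice, or received vehicle (PBS in the labels), and the libraries numbered 7 for Sham, 7 for Sham-OVA, 7 for PM and 8 for PM-OVA. Per the study's methods all mice went through a methacholine lung function test before the lung, labelled Lung (RML), was taken and homogenised.

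The TCR recognises peptides presented by other cells but cannot signal by itself, and relies on the CD3 and zeta chains, whose cytoplasmic tails carry the tyrosine motifs of the complex. CD4 brings the kinase LCK to the engaged receptor, LCK phosphorylates these tails, and ZAP70 docks on them and passes the signal to adaptors such as LAT. CD5 and CD6 are scavenger receptor family proteins that sit near the receptor and tune its signal. These genes are transcribed mainly in T cells, and CD4 T cells of the T helper 2 type are known as drivers of allergic airway inflammation in this model. CpG methylation is often low over regulatory sequence that a cell type uses and high over most other gene sequence, and in homogenised lung each %DNAm is an average over all cells present. A change in the share of a cell type and a change of methylation within a cell type therefore cannot be told apart here.

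The sequences under the lowest and the most OVA-responsive windows, and under several gene starts, are shown with their CpGs, the dinucleotides whose methylation enters a window's value, in capitals. Values are given per window and not per CpG, and the Cd3d promoter holds 0 CpGs. Coordinates are GRCm38. From the windows with the lowest %DNAm (Lck window 6), the largest rise (Zap70 window 4) and the largest fall (Cd247 window 6), the 200 bases densest in CpG and free of annotated untranslated sequence were taken on the + strand. The Zap70 stretch lay wholly in exonic sequence, the Lck stretch had 144 exonic bases, and the Cd247 stretch had 0. In this order of windows they held 12, 25 and 9 CpGs.
Lck window 6 chr4:129556223-129556422, + strand: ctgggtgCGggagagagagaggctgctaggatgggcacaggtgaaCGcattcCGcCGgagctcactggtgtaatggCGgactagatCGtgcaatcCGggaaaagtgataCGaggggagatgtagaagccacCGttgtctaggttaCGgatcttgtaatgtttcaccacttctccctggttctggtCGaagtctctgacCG
Zap70 window 4 chr1:36770855-36771054, + strand: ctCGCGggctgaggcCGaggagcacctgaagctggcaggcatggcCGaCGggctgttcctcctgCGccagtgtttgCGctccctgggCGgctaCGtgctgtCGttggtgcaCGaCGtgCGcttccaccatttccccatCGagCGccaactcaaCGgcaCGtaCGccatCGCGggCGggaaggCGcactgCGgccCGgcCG
Cd247 window 6 chr1:165810119-165810318, + strand: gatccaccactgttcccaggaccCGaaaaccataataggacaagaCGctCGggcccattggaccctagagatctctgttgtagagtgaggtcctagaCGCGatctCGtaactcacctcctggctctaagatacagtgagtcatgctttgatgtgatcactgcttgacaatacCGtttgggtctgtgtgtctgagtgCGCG

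The RefSeq table (GRCm38) held 10 promoters of 7 of the genes. Cd4 and Cd6 were not matched. In the 250 bases before the start, the 10 promoters held 0 to 7 CpGs, whereas the median of all 32851 promoters was 6 with quartiles of 2 and 16. The promoter of Cd3d held 0, the start-proximal promoter of Lck 1 and its inner promoter 3, and Cd3e and the innermost Zap70 promoter held 7 each. Shown 5′ to 3′ on the strand of the gene, the promoters of Cd3e and Cd3d, the start-proximal and the inner Lck promoter, and the outermost Zap70 promoter read as follows.
Cd3e chr9:45009612-45009861, - strand: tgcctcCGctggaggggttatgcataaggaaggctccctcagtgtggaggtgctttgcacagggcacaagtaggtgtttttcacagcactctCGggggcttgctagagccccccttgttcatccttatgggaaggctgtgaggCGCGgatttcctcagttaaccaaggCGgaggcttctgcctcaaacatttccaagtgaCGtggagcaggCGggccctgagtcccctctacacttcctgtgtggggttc
Cd3d chr9:44981536-44981785, + strand: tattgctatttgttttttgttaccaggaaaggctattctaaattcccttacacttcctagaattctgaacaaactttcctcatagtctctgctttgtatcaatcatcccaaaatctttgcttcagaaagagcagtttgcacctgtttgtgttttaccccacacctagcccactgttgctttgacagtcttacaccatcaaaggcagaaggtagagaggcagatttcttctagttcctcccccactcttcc
Lck start-proximal chr4:129573642-129573891, - strand: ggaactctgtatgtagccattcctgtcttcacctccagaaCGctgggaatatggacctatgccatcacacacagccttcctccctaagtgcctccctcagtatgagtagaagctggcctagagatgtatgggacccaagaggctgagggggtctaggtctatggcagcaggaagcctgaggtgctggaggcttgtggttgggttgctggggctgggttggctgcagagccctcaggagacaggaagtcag
Lck inner chr4:129558373-129558622, - strand: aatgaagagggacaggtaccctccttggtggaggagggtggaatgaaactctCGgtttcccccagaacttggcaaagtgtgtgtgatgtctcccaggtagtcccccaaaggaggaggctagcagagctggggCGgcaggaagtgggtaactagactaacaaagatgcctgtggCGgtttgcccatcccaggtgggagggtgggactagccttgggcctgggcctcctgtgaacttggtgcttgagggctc
Zap70 chr1:36761548-36761797, + strand: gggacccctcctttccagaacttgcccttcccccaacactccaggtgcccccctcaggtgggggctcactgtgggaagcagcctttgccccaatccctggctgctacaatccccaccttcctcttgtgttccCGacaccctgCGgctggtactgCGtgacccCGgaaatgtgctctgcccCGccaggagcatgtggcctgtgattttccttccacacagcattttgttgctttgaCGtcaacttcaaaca

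Motifs of factor families known in T cells were searched in these 250 bases on both strands, by letters alone. The E-box CAGGTG occurred in 7 of the 10 member promoters and in 17.2% of all promoters. The ETS core AGGAAG occurred in 8 of 10 and in 29.5% of all, the RUNX motif TGTGGT in 2 of 10 and in 14% of all, and the GATA motif AGATAA in 1 of 10 and in 9.99% of all. The motifs share no complete match with each other, and promoters of the same gene are not independent. These matches describe the letters in the promoters, which do not all lie within windows named for the 9 genes, and were not tested against the methylation.

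The libraries had a value in 258952 to 260135 of the windows of the table, and neither counts nor coverage are given with them. The study's methods report high coverage of the genome per replicate, but the depth of a single %DNAm value is not given. Its precision therefore rests here on the number of libraries. Values after ± are the SD over the mice of a group, 1 library each. Over the 72 windows, Pearson's r between pairs of libraries lay between 0.961 and 0.994. Sham replicate 1 stood apart on the sex chromosomes, with a value in 1224 windows of the Y chromosome against 29 to 46 in the others and with 5.95% of its X chromosome windows under 10% methylation against 0.268 to 0.488%. These values go against the female label of this library. Values without it are given where they end a call, move a count by over 1.5 times or belong to a result that turns on the Sham libraries. Labels number the offspring of a group but give no dam or litter, so mice of a group may share a litter, and p-values measure the spread between these mice. Windows are numbered from the start of each gene in its direction of transcription. A window was said to rise or fall when the limma adjusted p over all 259167 tested windows was under 0.05, and to be a differentially methylated region (DMR) when the difference was also at least 10 percentage points.

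The 9 genes were mostly methylated in lung, with sharp valleys inside Lck and Cd247. The level without OVA (mean of Sham and PM) ranged from 11.0 to 90.2% over the 72 windows, with a median of 74.2% against 77.0% for all tested windows. It was under 50% in 7 windows and over 75% in 35. The gene means, each over the windows of a gene, were ordered in Sham as Cd6 at 77.2% ± 0.523 (7 mice), Cd4 at 75.2% ± 0.590 (7 mice), Cd5 at 72.8% ± 1.01 (7 mice) and Zap70 at 72.5% ± 0.964 (7 mice). They were followed by Cd247 at 71.5% ± 0.374 (7 mice), Cd3d at 67.4% ± 1.29 (7 mice), Cd3e at 62.7% ± 1.21 (7 mice), Lck at 56.9% ± 0.336 (7 mice) and Cd3g at 56.8% ± 1.91 (7 mice). Within this order, the neighbours Cd5 and Zap70, and Lck and Cd3g, differed by less than 1 SD, and these gene means also depend on how many windows the table has for a gene. The median SD between libraries of a group was 1.65 points for these windows and 1.41 points for all windows.

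**Figure D1:**
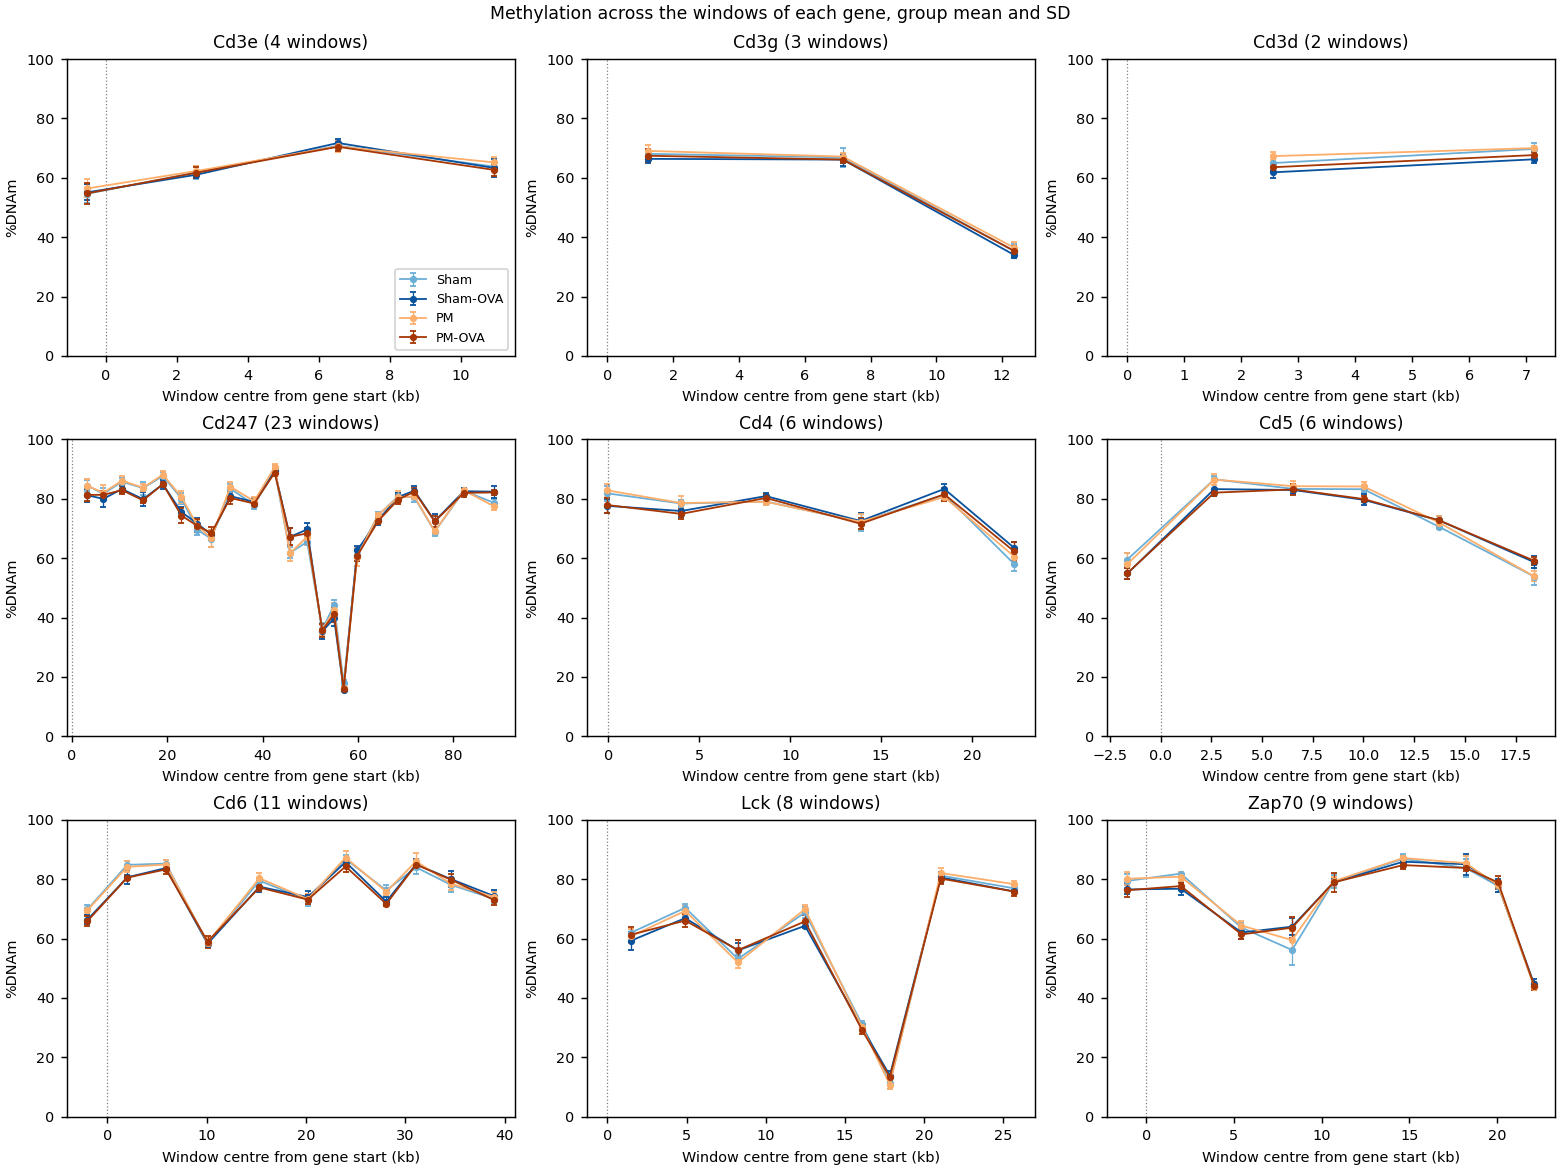
Percent methylation (%DNAm, y axis, 0 to 100) of each window against the distance of its centre from the start of the gene in kb (x axis) for the 9 genes, with points for group means and bars for the SD over 7 or 8 libraries. The 4 group lines nearly coincide in each gene, and the valleys within Cd247 (near 16%) and Lck (near 11%) stand out.

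The valley of Lck, the kinase that starts TCR signalling, spanned windows 5 and 6, centred 16.1 and 17.8 kb inside the gene. Window 6 (chr4:129555045-129556574), with 924 exonic bases and 32.03 CpGs per kb, lay at 8.71 to 14.1% (median 11.7) in Sham and 9.08 to 12.5% (median 11.0) in PM, and window 5 next to it at 29.4 to 32.4% (median 31.8) in Sham. Most of the inner promoter lies in window 5, whereas window 1 with the annotated start lay at 60.0 to 63.4% (median 62.1) in Sham. The libraries of window 1 all lay above those of windows 5 and 6. In Cd247, which encodes the zeta chain, windows 14 to 16 were low and were centred 52.5 to 57.0 kb from the gene start. The lowest, window 16 (chr1:165845045-165846280), had the highest CpG density of the members (40.45 per kb), overlaps the annotated gene Gm37856, and lay at 16.6 to 19.7% (median 17.3) in Sham. The last windows of Zap70 and Cd3g were also low, at 43.9% ± 1.24 (7 mice) and 35.3% ± 2.43 (7 mice). Over the 72 windows, level and CpG density went in opposite directions with a Pearson's r of -0.523 and a Spearman's rho of -0.188, which describes these windows only.

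After OVA, many windows of the 9 genes shifted by a few points, more often downwards, and 0 of 72 reached the size of a DMR in either kind of offspring. DMRs were 0.775% of all windows for OVA in Sham and 0.584% for OVA in PM, and with 72 windows a count of 0 is near these shares. With a minimum of 5 points in place of 10, 4 windows passed in Sham (all windows 5.96%) and 3 in PM (all windows 5.89%). In Sham offspring 35 of the 72 windows (48.6%) passed the adjusted p alone, 24 lower and 11 higher, whereas 35.6% of all windows did (22.3% lower and 13.3% higher). In PM offspring 33 (45.8%) passed, 27 lower and 6 higher, against 44.1% of all windows (34.8% lower and 9.26% higher), so the share in PM offspring was near the background. Unadjusted p-values under 0.05 were found for 38 windows in each arm, against 45% of all windows in Sham and 51.4% in PM. The largest rise was 7.85 points (Zap70 window 4, Sham), the largest fall was -6.30 points (Cd247 window 6, PM), and the median differences for Sham and PM offspring were -0.701 and -1.07 points, against -0.414 and -1.03 points over all windows. The 95% interval of the difference reached beyond 10 points at Zap70 window 4 in Sham, up to 11.7 points, and at none of the other windows in either arm. When each library was centred, that is shifted by its median deviation over all windows, 32 windows passed in Sham (19 lower, or 59.4% against 68.6% uncentred) and 29 in PM (16 lower, or 55.2% against 81.8%), and all windows then split into 17.8% lower and 18.3% higher in Sham and 18.7% lower and 18.9% higher in PM. Without Sham replicate 1, 30 windows passed in Sham offspring, 20 of them lower. The 5 lost were Cd247 window 18, Cd4 windows 2 and 3, Cd6 window 5 and Zap70 window 1.

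The 2 arms, which share no library, gave like values. The OVA difference had the same sign in 61 of 72 windows (84.7%, all windows 81.8%), and correlated across windows (Pearson's r 0.879, Spearman's rho 0.869), which are neighbours in 9 genes and not independent. In 26 windows (36.1%, all windows 27.3%) both arms passed with the same sign, 21 of them lower (all windows 19.7%) and 5 higher (all windows 7.57%), and 0 windows passed with opposite signs. The 5 were Cd247 windows 12, 21 and 23, Cd5 window 6 and Lck window 6. With centred libraries further windows rose in both arms. These were Cd247 windows 13 and 20, Cd4 windows 3 and 6, Cd5 window 5, Lck window 3 and Zap70 window 4. Some falls were then no longer shared, so falls did not clearly exceed rises. They were both Cd3d windows, Cd247 windows 1 and 18, Cd4 window 2, Cd6 window 5, Lck window 2 and Zap70 window 1. The OVA and control libraries did not overlap in 4 windows in Sham (Cd6 window 2, Lck windows 2 and 4, Zap70 window 2; background 8.58%) and in 7 in PM (Cd247 windows 4, 5, 6 and 23, Cd5 windows 2 and 4, Cd6 window 8; background 12%). Separation in both arms was found for 0 of the 72 windows (background 4.24%).

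**Figure D2:**
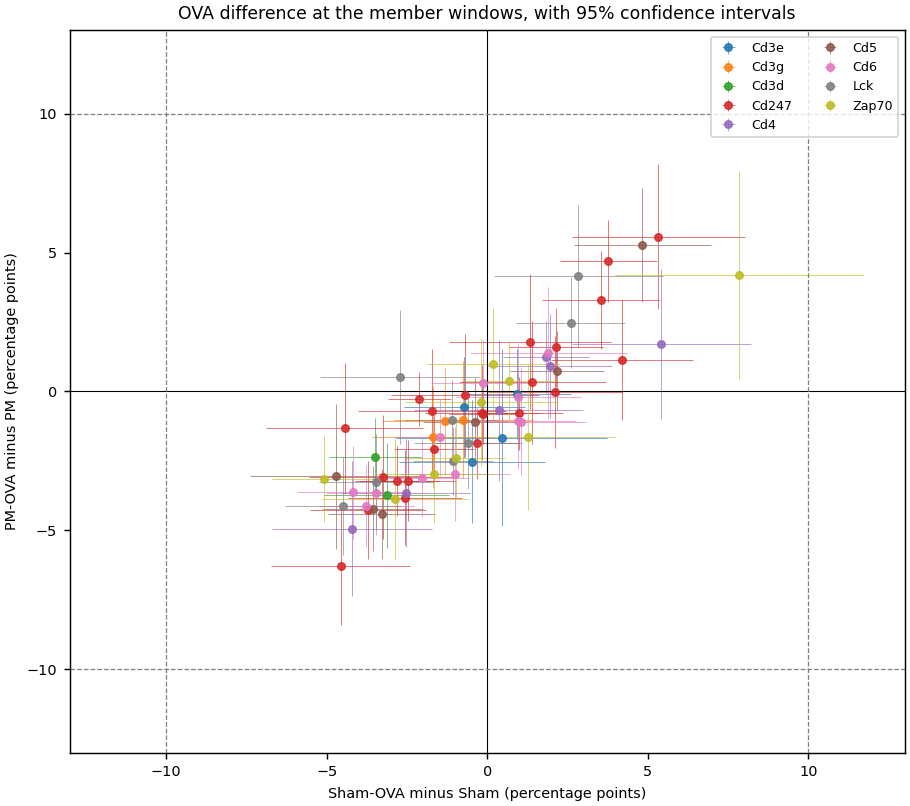
Difference of each window after OVA in Sham offspring (x axis, percentage points) and in PM offspring (y axis, percentage points), 72 windows coloured by gene, with 95% confidence intervals as bars and dashed lines at 10 points. The points run along the diagonal, 61 of 72 with the same sign, and all lie within the dashed lines.

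Among the invariant chains of the receptor, Cd3d fell in both of its windows in both arms, and 0 of 4 windows of Cd3e and 0 of 3 of Cd3g passed in either arm, whereas 22.3% of all windows fell in Sham and 34.8% in PM. Cd3d, Cd3e and Cd3g encode the CD3 delta, epsilon and gamma chains and lie side by side on chromosome 9. Libraries of Cd3d window 1 (chr9:44982280-44986407), which has 728 exonic bases, ranged over 62.2 to 68.3% (median 63.8) in Sham, 59.1 to 64.2% (median 62.3) in Sham-OVA, 65.4 to 69.2% (median 67.3) in PM and 61.4 to 65.6% (median 63.7) in PM-OVA. The OVA libraries were the lower ones in both arms, with some overlap. The difference was -3.13 points in Sham offspring (95% CI -5.07 to -1.19; limma adjusted p = 0.0162) and -3.74 points in PM offspring (95% CI -5.62 to -1.86; limma adjusted p = 0.00240). The second window (chr9:44986416-44991438), with the gene end, went from 69.7% ± 1.98 (7 mice) in Sham to 66.2% ± 1.35 (7 mice) in Sham-OVA and from 70.0% ± 0.703 (7 mice) in PM to 67.7% ± 0.978 (8 mice) in PM-OVA, and the ranges overlapped slightly. The difference was -3.49 points in Sham offspring (95% CI -4.93 to -2.04; limma adjusted p = 0.000837) and -2.35 points in PM offspring (95% CI -3.75 to -0.948; limma adjusted p = 0.0114). With centred libraries, the PM differences of both windows no longer passed (limma adjusted p = 0.0525 and 0.368). With the Sham and Sham-OVA groups fitted alone, window 1 also missed the threshold in Sham (limma adjusted p = 0.0531).

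The start of Cd3d lies in a window named for Cd3g (window 1, chr9:44976090-44982273), which holds both starts, since the genes are divergent neighbours. This window lay at 65.7 to 70.1% (median 68.1) in Sham, 64.3 to 68.2% (median 66.5) in Sham-OVA, 67.1 to 71.9% (median 68.2) in PM and 64.3 to 71.6% (median 67.0) in PM-OVA, and the groups overlapped widely. The difference was -1.69 points in Sham offspring (95% CI -3.58 to 0.201; limma adjusted p = 0.183) and -1.63 points in PM offspring (95% CI -3.46 to 0.201; limma adjusted p = 0.162). In Cd3e, the start window (chr9:45008764-45011539) was the least methylated of its 4 windows, at 49.7 to 57.4% (median 56.3) in Sham, 51.4 to 58.8% (median 55.1) in Sham-OVA, 52.5 to 60.1% (median 56.1) in PM and 49.1 to 61.8% (median 54.8) in PM-OVA. The difference was 0.450 points in Sham offspring (95% CI -2.84 to 3.74; limma adjusted p = 0.855) and -1.66 points in PM offspring (95% CI -4.85 to 1.52; limma adjusted p = 0.413). Its window 4 (chr9:44996601-45000779) had the largest mean OVA difference of the gene, -0.463 points in Sham (limma adjusted p = 0.805) and -2.52 points in PM (limma adjusted p = 0.0680). The Sham-OVA libraries spread most there, from 59.9 to 68.9%, and covered the whole range of Sham. Leaving out PM-OVA replicate 1 or Sham-OVA replicate 7 took the PM difference past the threshold (limma adjusted p = 0.0265 and 0.0356), and leaving out PM-OVA replicate 3 did so for Cd3g window 1 (0.0386).

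Cd247, the longest of the genes with 23 windows, showed stretches that fell and stretches that rose. Of its windows, 9 fell (39.1%) and 5 rose (21.7%) in Sham, and 8 fell (34.8%) and 3 rose (13%) in PM, against 22.3% lower and 13.3% higher of all windows in Sham and 34.8% lower and 9.26% higher in PM, so the share of falls in PM was at the background. With centred libraries 7 fell and 6 rose in Sham, and 5 fell and 6 rose in PM. Windows 1, 3, 4, 5, 6, 9 and 18 fell in both arms, and 5 of these lie among the 6 windows nearest the start. Window 6 (chr1:165809676-165813590) gave the largest fall of all members, and its libraries lay at 77.2 to 83.2% (median 80.1) in Sham, 73.1 to 78.2% (median 75.8) in Sham-OVA, 77.9 to 83.2% (median 80.9) in PM and 70.1 to 77.0% (median 75.3) in PM-OVA. The PM and PM-OVA libraries did not overlap, whereas Sham and Sham-OVA did slightly. The difference was -4.57 points in Sham offspring (95% CI -6.74 to -2.40; limma adjusted p = 0.00121) and -6.30 points in PM offspring (95% CI -8.39 to -4.20; limma adjusted p = 2.04e-05). Window 1 (chr1:165790276-165793543), the nearest to the start among those named for Cd247, went from 84.5% ± 1.94 (7 mice) to 81.2% ± 2.24 (7 mice) in Sham offspring and from 84.4% ± 2.44 (7 mice) to 81.3% ± 2.19 (8 mice) in PM offspring. Its limma adjusted p of 0.0290 and 0.0237 rose to 0.0650 and 0.146 with centred libraries, and lay between 0.00882 and 0.0771 in Sham and between 0.0131 and 0.0777 in PM when single libraries were left out. Those whose removal ended the Sham call were Sham replicates 4 and 7 and Sham-OVA replicates 1, 2, 3 and 5, and for PM they were PM replicates 3 and 5 and PM-OVA replicate 7. The start of Cd247 itself lies in a window named for Gm16565 (chr1:165787260-165790053), which fell from 82.6 to 76.3% in Sham (limma adjusted p = 0.000327) and from 82.3 to 77.0% in PM (limma adjusted p = 0.000781).

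Further into the zeta chain gene, methylation moved both ways. Window 12 (chr1:165832883-165835915), 45.7 kb from the start and without exonic bases, lay at 59.1 to 64.9% (median 61.2) in Sham, 63.6 to 71.7% (median 67.2) in Sham-OVA, 57.0 to 65.1% (median 62.0) in PM and 63.8 to 70.6% (median 68.1) in PM-OVA. Libraries with OVA were the higher ones, with overlap in both arms. The difference was 5.33 points in Sham offspring (95% CI 2.63 to 8.02; limma adjusted p = 0.00288) and 5.57 points in PM offspring (95% CI 2.96 to 8.18; limma adjusted p = 0.00114). The last window, 23 (chr1:165874392-165880110), over the gene end and the neighbouring gene Pou2f1, rose from 78.6% ± 1.38 (7 mice) to 82.4% ± 1.98 (7 mice) in Sham and from 77.5% ± 1.27 (7 mice) to 82.2% ± 0.789 (8 mice) in PM (limma adjusted p = 0.000269 and 1.60e-05). Window 15 differed by -4.44 points in Sham and -1.33 points in PM (limma adjusted p = 0.00604 and 0.381), and window 18 fell by 1.66 and 2.07 points (limma adjusted p = 0.0482 and 0.00895), the Sham fall being lost without Sham replicate 1. With centred libraries window 18 passed in neither arm (limma adjusted p = 0.244 in Sham and 0.423 in PM). The valley window 16 fell by 2.11 points in Sham, from 17.9% ± 1.17 (7 mice) to 15.7% ± 0.565 (7 mice) (limma adjusted p = 0.00146). In PM its difference was -0.275 points (limma adjusted p = 0.667), or 0.704 with centred libraries.

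Cd4, the coreceptor of helper T cells, fell over its start and rose at its end in Sham offspring. Window 1 (chr6:124886149-124890418) holds the start and lay at 77.4 to 85.2% (median 82.2) in Sham, 75.0 to 81.3% (median 76.9) in Sham-OVA, 80.7 to 86.9% (median 82.5) in PM and 72.3 to 81.0% (median 78.2) in PM-OVA. Most OVA libraries were below most control libraries, with overlap in both arms. The difference was -4.21 points in Sham offspring (95% CI -6.71 to -1.71; limma adjusted p = 0.00837) and -4.93 points in PM offspring (95% CI -7.36 to -2.51; limma adjusted p = 0.00121). Window 6 (chr6:124864153-124867627), over the gene end with 2092 exonic bases, rose in Sham from 58.0% ± 2.51 (7 mice) to 63.5% ± 2.12 (7 mice) (limma adjusted p = 0.00332), and its PM difference of 1.72 points did not pass (limma adjusted p = 0.308). The interaction test at this window gave -3.71 points (95% CI -7.59 to 0.179; limma adjusted p = 0.694), so the arms were not shown to differ. Without Sham replicate 1, window 1 differed by -3.65 points in Sham (limma adjusted p = 0.0250). In all, 2 of 6 windows of Cd4 fell and 2 rose in Sham (33.3% each, against 22.3 and 13.3% of all windows), and 2 fell and 0 rose in PM (33.3% lower, near the 34.8% of all windows). Without Sham replicate 1, 1 fell and 1 rose in Sham. With centred libraries 1 fell and 2 rose in Sham, and 2 fell and 2 rose in PM, where the rises were in window 3 (2.23 points, limma adjusted p = 0.00540) and window 6 (2.70 points, limma adjusted p = 0.0361).

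Cd5 and Cd6, which encode the surface receptors near the TCR, lie next to each other on chromosome 19. Of the 6 windows of Cd5, 3 fell and 2 rose in Sham (all windows 22.3 and 13.3%), and 2 fell and 1 rose in PM (all windows 34.8 and 9.26%), or 2 and 2 in PM with centred libraries. The 2 falls in PM, 33.3% of the windows, were near the background. Its window 6 (chr19:10717972-10723189), with 1596 exonic bases near the gene end, lay at 49.3 to 56.9% (median 54.6) in Sham, 56.3 to 62.1% (median 58.1) in Sham-OVA, 52.0 to 56.6% (median 53.8) in PM and 56.5 to 61.0% (median 59.2) in PM-OVA. Control libraries were the lower ones, and the ranges met only slightly. The difference was 4.83 points in Sham offspring (95% CI 2.71 to 6.96; limma adjusted p = 0.00105) and 5.27 points in PM offspring (95% CI 3.21 to 7.33; limma adjusted p = 0.000227). At the start of Cd5, window 1 (chr19:10738457-10742826) went from 59.6% ± 2.24 (7 mice) to 54.9% ± 2.01 (7 mice) in Sham (limma adjusted p = 0.00774). In PM the start window went from 58.0% ± 3.84 (7 mice) to 55.0% ± 1.89 (8 mice) (limma adjusted p = 0.0583), and this value moved between 0.0158 (without PM replicate 2) and 0.159 (without PM replicate 1). It also passed without PM replicate 4 or PM-OVA replicates 2 or 3 (0.0194, 0.0491 and 0.0422) and missed by more with centred libraries (0.411). The annotated end of Cd5 lies in a window named for Vps37c, which differed by -0.337 points in Sham and -0.989 points in PM (limma adjusted p = 0.800 and 0.286).

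Cd6, whose protein binds CD166 on other cells, fell in 4 of 11 windows in Sham (36.4%, all windows 22.3%) and 6 of 11 in PM (54.5%, all windows 34.8%), and 0 windows rose. With centred libraries 3 fell in Sham and 5 in PM, against 17.8 and 18.7% of all windows. Its start window (chr19:10829836-10834261) lay at 67.7 to 72.1% (median 70.2) in Sham, 64.2 to 68.3% (median 66.0) in Sham-OVA, 68.8 to 71.2% (median 69.4) in PM and 63.7 to 68.9% (median 65.7) in PM-OVA. The ranges met only at their edges. The difference was -3.47 points in Sham offspring (95% CI -5.02 to -1.91; limma adjusted p = 0.00145) and -3.66 points in PM offspring (95% CI -5.16 to -2.15; limma adjusted p = 0.000529). Window 8 (chr19:10799898-10804024), 28.1 kb into the gene, lay at 73.6 to 78.9% (median 75.9) in Sham, 69.4 to 73.7% (median 73.2) in Sham-OVA, 74.4 to 77.5% (median 75.7) in PM and 70.4 to 72.5% (median 71.9) in PM-OVA. PM-OVA was entirely below PM, and Sham-OVA met Sham at the edge. The difference was -3.76 points in Sham offspring (95% CI -5.25 to -2.27; limma adjusted p = 0.000368) and -4.10 points in PM offspring (95% CI -5.55 to -2.66; limma adjusted p = 8.53e-05).

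The kinase genes Lck and Zap70 moved in both directions in Sham offspring. In Lck, 2 of 8 windows fell and 1 rose in Sham (25 and 12.5%, near the 22.3 and 13.3% of all windows), and 3 fell and 2 rose in PM (37.5 and 25%, against 34.8 and 9.26%). With centred libraries 2 fell and 2 rose in Sham, and 1 fell and 2 rose in PM. The clearest fall was in window 4 (chr4:129558644-129563692), between the start and the inner promoter, with libraries at 66.0 to 71.9% (median 68.5) in Sham, 62.9 to 65.5% (median 64.2) in Sham-OVA, 67.7 to 72.7% (median 69.5) in PM and 63.7 to 69.2% (median 65.0) in PM-OVA. Sham-OVA was entirely below Sham, while PM-OVA overlapped PM. The difference was -4.49 points in Sham offspring (95% CI -6.31 to -2.67; limma adjusted p = 0.000541) and -4.13 points in PM offspring (95% CI -5.89 to -2.37; limma adjusted p = 0.000585). The lowest window of all members, Lck window 6, rose from 11.3% ± 2.07 (7 mice) to 13.9% ± 1.60 (7 mice) in Sham and from 10.8% ± 1.41 (7 mice) to 13.3% ± 1.18 (8 mice) in PM, with overlapping libraries in both arms. The difference was 2.60 points in Sham offspring (95% CI 0.911 to 4.30; limma adjusted p = 0.0142) and 2.48 points in PM offspring (95% CI 0.840 to 4.12; limma adjusted p = 0.0116). The start window (chr4:129570433-129573850) had differences of -2.71 points in Sham (limma adjusted p = 0.0959) and 0.516 points in PM (limma adjusted p = 0.755).

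In Zap70, 2 of 9 windows fell and 1 rose in Sham (22.2 and 11.1%, near the 22.3 and 13.3% of all windows), and 4 fell and 0 rose in PM (44.4% lower, against 34.8%). Without Sham replicate 1, 1 fell in Sham. With centred libraries 1 fell and 1 rose in each arm, window 2 and window 4. Window 4 (chr1:36769098-36771113), a CpG-dense stretch with 312 exonic bases, had the largest OVA difference of all members. Its libraries lay at 49.9 to 65.8% (median 54.5) in Sham, 57.6 to 66.6% (median 64.8) in Sham-OVA, 54.7 to 63.0% (median 59.1) in PM and 59.1 to 68.6% (median 63.7) in PM-OVA. Sham libraries spread more here than in any other group and window of the members, and OVA and control ranges overlapped in both arms. The difference was 7.85 points in Sham offspring (95% CI 3.99 to 11.7; limma adjusted p = 0.00212) and 4.19 points in PM offspring (95% CI 0.453 to 7.93; limma adjusted p = 0.0611). The rise in Sham stayed between 6.80 and 9.46 points when single libraries were left out, all past the threshold. The PM difference fell on either side of the threshold, with limma adjusted p between 0.0298 (without Sham replicate 4) and 0.141 (without PM replicate 6), and it also passed without Sham-OVA replicate 7, PM replicate 4 or PM-OVA replicates 1, 4 or 5. It was 0.0128 with centred libraries and 0.0368 with PM and PM-OVA fitted alone. The interaction at this window was -3.66 points (95% CI -9.03 to 1.72; limma adjusted p = 0.779).

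The start window of Zap70 (chr1:36759293-36762132) went from 79.4% ± 2.38 (7 mice) to 76.6% ± 1.65 (7 mice) in Sham and from 80.2% ± 2.13 (7 mice) to 76.3% ± 2.41 (8 mice) in PM. The difference was -2.87 points in Sham offspring (95% CI -5.15 to -0.596; limma adjusted p = 0.0466) and -3.87 points in PM offspring (95% CI -6.08 to -1.67; limma adjusted p = 0.00549). The Sham result was at the edge of the threshold, with a limma adjusted p of 0.0196 to 0.128 over the fits without a single library (0.128 without Sham replicate 1), and it was lost without Sham replicates 1, 2, 4, 5 or 6, Sham-OVA replicates 1, 2, 3, 4, 5 or 6, PM replicates 6 or 7, or PM-OVA replicate 5. Centred libraries gave 0.102 in Sham and 0.0565 in PM. The next window, 2 (chr1:36762141-36765384), which holds another annotated Zap70 promoter, fell from 81.9% ± 0.591 (7 mice) to 76.8% ± 2.26 (7 mice) in Sham without overlap (limma adjusted p = 1.47e-05), and from 80.9% ± 1.49 (7 mice) to 77.7% ± 1.18 (8 mice) in PM (limma adjusted p = 0.00135).

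**Figure D3:**
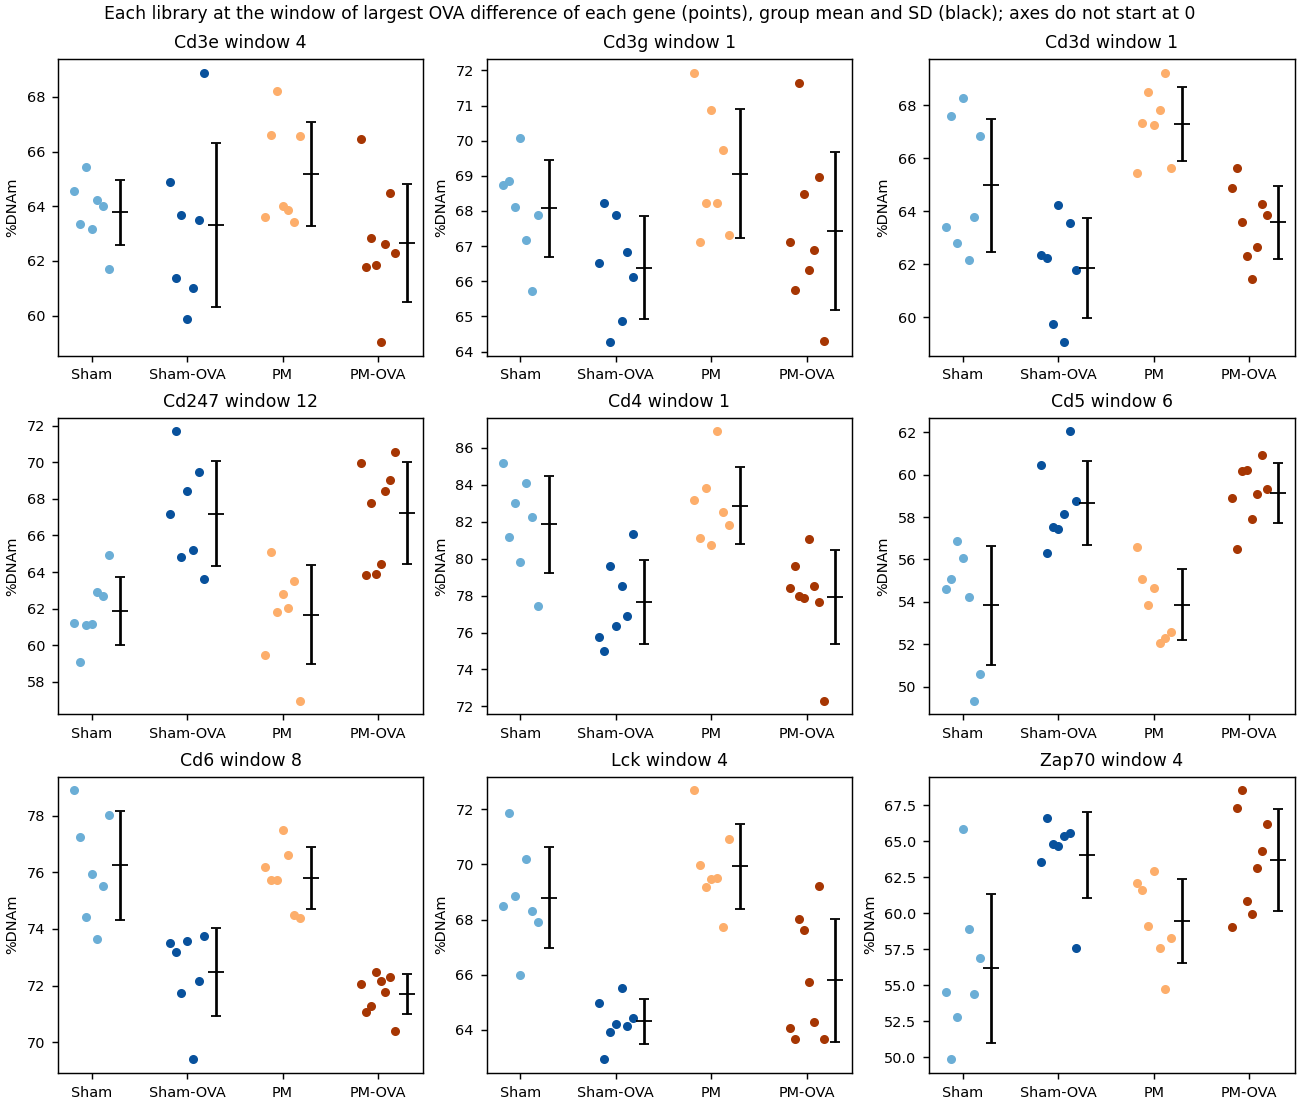
Percent methylation (%DNAm, y axes not starting at 0) of every library (points) by group (x axis) at the window with the largest OVA difference of each gene, with the group mean and SD in black (n = 7, 7, 7 and 8). OVA libraries sit lower in Cd3d, Cd4, Cd6 and Lck and higher in Cd247, Cd5 and Zap70, with single libraries crossing over in most panels.

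The direction was also counted by position and by level, without centring of libraries. In the 7 windows that hold an annotated start, 4 fell and 0 rose in Sham and 3 fell and 0 rose in PM, with median differences of -2.87 and -3.05 points. Of the 32394 tested windows that hold the start of their named gene, 19.1% fell and 9.46% rose in Sham and 31.2% fell and 6.61% rose in PM. In the other 65, 20 fell and 11 rose in Sham and 24 fell and 6 rose in PM, with medians of -0.463 and -1.02 points, and of all such windows 22.7% fell and 13.9% rose in Sham and 35.3% fell and 9.70% rose in PM. With 7 start windows, these counts are a description. The 35 windows over 75% without OVA held 15 falls and 3 rises in Sham and 20 falls and 1 rise in PM. Of all windows at that level, 28.8% fell and 8.14% rose in Sham and 44.5% fell and 4.86% rose in PM. The 30 windows between 50 and 75% held 7 falls and 7 rises in Sham and 7 falls and 4 rises in PM, where 16.9% of all such windows fell and 19% rose in Sham and 28.3% fell and 13.3% rose in PM. With centred libraries the balance in PM turned, and only Cd6 window 1 and Lck window 4 fell. Cd247 windows 8, 12, 13 and 21, Cd4 window 6, Cd5 windows 5 and 6, Lck window 3 and Zap70 window 4 rose. Shares of all windows by level were not computed with centred libraries. The remaining 7 windows, all under 50%, held 2 falls and 1 rise in Sham and 0 falls and 1 rise in PM, where 7.49% of all such windows fell and 22.1% rose in Sham and 9.54% fell and 18.6% rose in PM. Exonic sequence of the own gene was present in 45 windows, of which 11 fell and 9 rose in Sham, and absent from 27, of which 13 fell and 2 rose. In PM these counts were 14 and 4 with exonic sequence, and 13 and 2 without. Of all windows, 19.5% fell and 13.8% rose in Sham with exonic sequence of the named gene and 26.3% fell and 12.7% rose without it, and in PM these shares were 30.6% and 9.69% with it and 40.9% and 8.72% without it.

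In the remaining groups the gene means were as follows. Cd3d had 64.0% ± 1.05 (7 mice) in Sham-OVA, 68.7% ± 0.699 (7 mice) in PM and 65.6% ± 0.626 (8 mice) in PM-OVA. The Cd3d means of OVA libraries all lay below those of control libraries. They were at most 64.9% against at least 65.5% in Sham offspring and 66.5% against 67.5% in PM offspring. Both Cd3d windows taken singly overlapped between OVA and control libraries in both arms. Of all single windows, 8.58% did not overlap in Sham and 12% in PM, and a share of gene means was not computed. With centred libraries the PM difference passed in neither Cd3d window (limma adjusted p = 0.0525 and 0.368). Cd6 had 76.2% ± 0.631 (7 mice) in Sham-OVA, 77.5% ± 0.869 (7 mice) in PM and 75.7% ± 0.676 (8 mice) in PM-OVA, the highest means among the 9 genes in each group. Cd4 had 75.6% ± 0.754 (7 mice) in Sham-OVA, 75.7% ± 0.890 (7 mice) in PM and 74.8% ± 1.30 (8 mice) in PM-OVA. Cd5 had 72.0% ± 1.02 (7 mice) in Sham-OVA, 73.1% ± 1.36 (7 mice) in PM and 72.0% ± 0.339 (8 mice) in PM-OVA. For Cd4 and Cd5, windows that fell and windows that rose entered the same mean. Zap70 had 72.4% ± 0.642 (7 mice) in Sham-OVA, 73.2% ± 0.740 (7 mice) in PM and 72.2% ± 1.14 (8 mice) in PM-OVA. Cd247 had 71.2% ± 0.503 (7 mice) in Sham-OVA, 71.6% ± 0.435 (7 mice) in PM and 71.0% ± 0.513 (8 mice) in PM-OVA. Lck had 55.9% ± 0.685 (7 mice) in Sham-OVA, 56.7% ± 0.586 (7 mice) in PM and 56.0% ± 0.629 (8 mice) in PM-OVA. These 3 genes also had windows of both signs. Cd3e had 62.8% ± 0.417 (7 mice) in Sham-OVA, 63.6% ± 1.07 (7 mice) in PM and 62.4% ± 1.70 (8 mice) in PM-OVA. Cd3g had 55.5% ± 1.21 (7 mice) in Sham-OVA, 57.6% ± 1.46 (7 mice) in PM and 56.3% ± 0.483 (8 mice) in PM-OVA.

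The mean over the 9 genes was 68.1% ± 0.579 (7 mice) in Sham, 67.3% ± 0.550 (7 mice) in Sham-OVA, 68.6% ± 0.498 (7 mice) in PM and 67.3% ± 0.485 (8 mice) in PM-OVA. Over all tested windows it was 69.1% ± 0.367 (7 mice) in Sham, 68.8% ± 0.597 (7 mice) in Sham-OVA, 69.4% ± 0.463 (7 mice) in PM and 68.4% ± 0.392 (8 mice) in PM-OVA. The PM-OVA libraries, with 66.6 to 68.0%, were below the PM libraries, with 68.2 to 69.7%, over the 9 genes. Sham (67.6 to 69.3%) and Sham-OVA (66.5 to 67.8%) overlapped. Over all tested windows PM-OVA (67.9 to 69.0%) also lay lower than PM (68.7 to 70.2%), with some overlap. Sham (68.6 to 69.6%) and Sham-OVA (67.8 to 69.5%) overlapped there too, so the lower level in PM-OVA was not particular to the 9 genes.

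Maternal exposure was then compared without and with OVA, the question being whether the dam's exposure left a mark on these genes. For PM against Sham, 0 of 72 windows passed the adjusted p (0% of all windows), and 4 (5.56%) had an unadjusted limma p under 0.05, against 5.79% of all. These were Cd3d window 1, Cd6 window 9 and Lck window 8, which were higher in PM, and Cd247 window 16, which was lower. The smallest p was in Cd247 window 16, with 17.9% ± 1.17 (7 mice) in Sham and 16.3% ± 0.902 (7 mice) in PM (difference -1.57 points, 95% CI -2.56 to -0.581; limma adjusted p = 0.805). Without Sham replicate 1 this difference was -1.78 points (limma adjusted p = 0.819), and 2 windows, Cd247 windows 10 and 16, had an unadjusted limma p under 0.05 against 5.64% of all. Over all 72 windows the differences ranged from -1.71 to 3.32 points and their 95% intervals lay within -4.24 and 7.18 points.

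For PM-OVA against Sham-OVA, 0 of 72 windows passed (0% of all) and 0 had an unadjusted limma p under 0.05, against 5.96% of all windows. The smallest p was in Cd4 window 5 (chr6:124867628-124871848), with 83.3% ± 1.51 (7 mice) in Sham-OVA and 81.5% ± 2.28 (8 mice) in PM-OVA (difference -1.81 points, 95% CI -3.69 to 0.0594; limma adjusted p = 0.842). The differences ranged from -1.83 to 2.01 points with 95% intervals within -4.08 and 4.42 points. A difference of 10 points between offspring of PM and Sham dams lay outside the intervals at each of the 72 windows, with and without OVA.

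The interaction, that is the OVA difference of PM offspring less that of Sham offspring, passed at 0 of 72 windows (0% of all) and had an unadjusted limma p under 0.05 at 1 (1.39%), against 7.4% of all. That window was Cd247 window 16, with libraries at 16.6 to 19.7% (median 17.3) in Sham, 15.1 to 16.7% (median 15.8) in Sham-OVA, 14.6 to 17.6% (median 16.4) in PM and 15.1 to 17.3% (median 15.9) in PM-OVA. Sham was the highest group, and its range reached down into those of the other groups. The interaction was 1.84 points (95% CI 0.457 to 3.21; limma adjusted p = 0.602), or 2.05 points without Sham replicate 1 (limma adjusted p = 0.592). Without that library 3 windows, Cd247 windows 10, 13 and 16, had an unadjusted limma p under 0.05, against 7.28% of all. The interaction uses the same Sham libraries as the other comparisons of this window. Over the 72 windows the interaction ranged from -3.71 to 3.22 points, with 95% intervals within -9.03 and 6.69 points.

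**Figure D4:**
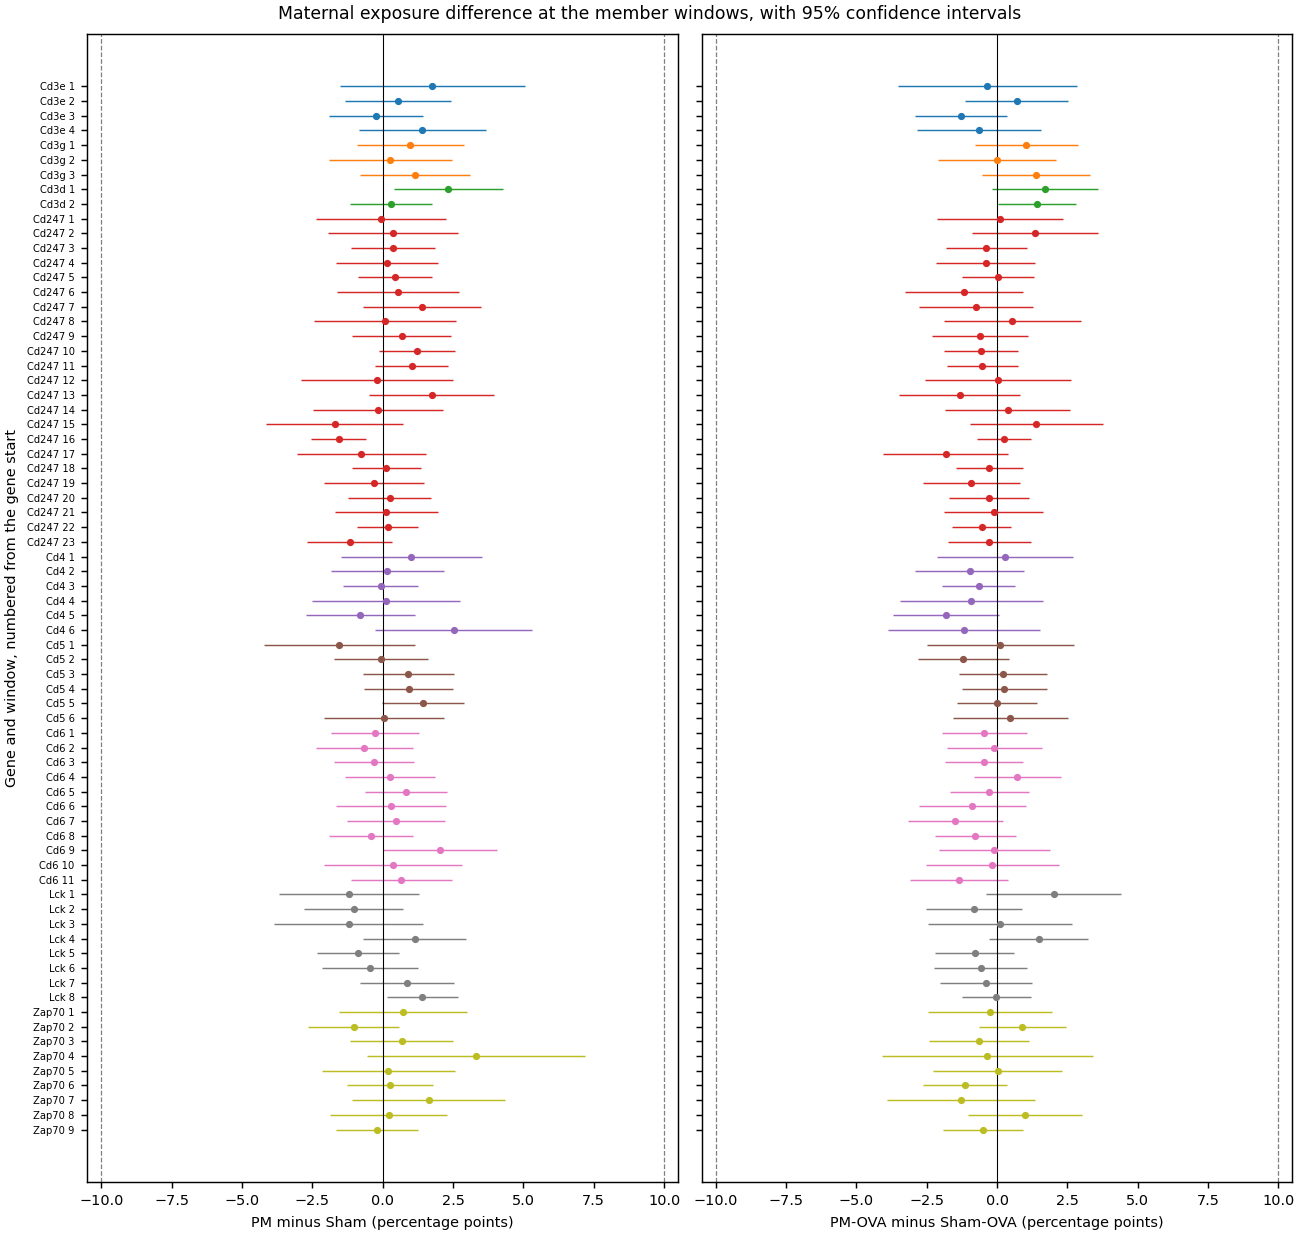
Difference between offspring of PM and Sham dams (x axes, percentage points) at each of the 72 windows (y axis, gene and window number), without OVA on the left and with OVA on the right, with 95% confidence intervals as bars. All intervals lie inside the dashed lines at 10 points, and the estimates run from -1.71 to 3.32 points on the left and from -1.83 to 2.01 points on the right.

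DMRs after OVA were found in other genes of TCR signalling. A list of 39 further genes, 38 of which had windows, covered 655 windows. It gave 19 DMRs for OVA in Sham (17 lower and 2 higher) and 19 for OVA in PM (18 lower and 1 higher), or 2.9% of the list in each arm against 0.775 and 0.584% of all windows, and 14 were DMRs in both. By the adjusted p alone, 188 fell and 131 rose in Sham (48.7%), and 247 fell and 101 rose in PM (53.1%), against 22.3% lower and 13.3% higher (35.6%) of all windows in Sham and 34.8% lower and 9.26% higher (44.1%) in PM. Marker lists of other cells held DMRs as well, with 5 and 3 among 84 endothelial windows, 2 and 3 among 48 myeloid windows and 2 and 0 among 16 eosinophil windows, so DMRs were not particular to the TCR list. Each role held some: 7 and 7 among 208 windows of adaptors, 2 and 3 among 183 of kinases and exchange factors, 5 and 5 among 113 of phosphatases and negative regulators, 4 and 3 among 131 of downstream genes, and 1 and 1 among 20 of coreceptors and surface partners, in Sham and PM respectively.

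The largest falls of the list were in a window of Rhoh, a haematopoietic GTPase that helps recruit ZAP70, which went from 67.4% ± 2.59 in Sham to 41.4% ± 3.99 in Sham-OVA and from 67.0% ± 4.88 in PM to 42.7% ± 2.72 in PM-OVA. Next came Ptprc, which encodes the leukocyte common antigen CD45, from 69.3% ± 1.36 in Sham to 50.2% ± 3.44 in Sham-OVA and from 68.1% ± 1.75 in PM to 51.6% ± 2.70 in PM-OVA. Nfatc1, a transcription factor activated by calcium signals, followed with differences of -17.2 points in Sham and, in another window, -15.8 points in PM. The adaptor Lat, the main ZAP70 substrate, had a window that went from 66.0% ± 3.09 in Sham to 51.5% ± 1.93 in Sham-OVA and from 67.1% ± 3.89 in PM to 53.4% ± 2.63 in PM-OVA. In PM the adaptor Grap2 rose by 11.3 points, the DMR of the list that was higher there. All of these passed with a limma adjusted p of at most 1.33e-05. Several of these genes, among them Ptprc, Csk, Grb2 and Ptpn6, are also used by leukocytes other than T cells. For the maternal comparisons and the interaction the list gave 0 windows with a limma adjusted p under 0.05, and 39, 33 and 43 of 655 at an unadjusted p under 0.05, whereas 5.79, 5.96 and 7.4% of all windows had one.

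**Figure D5:**
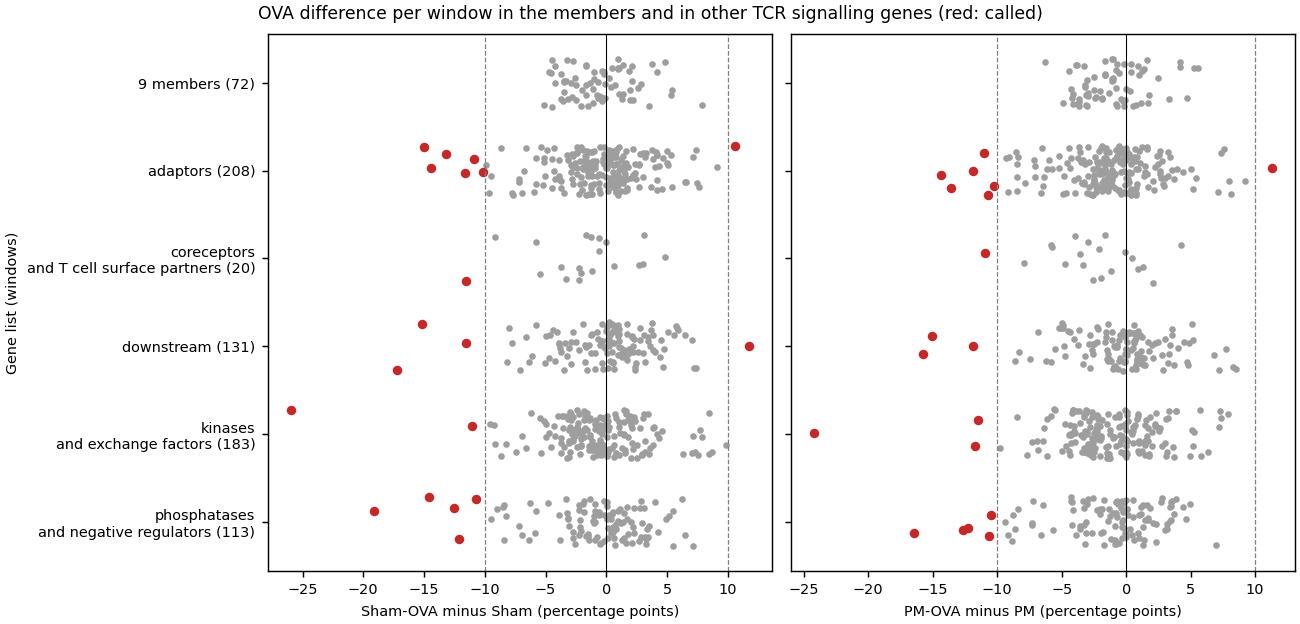
OVA difference per window (x axes, percentage points) in Sham (left) and PM (right) offspring for the 72 windows of the 9 genes and the windows of other TCR signalling genes by role (y axis, number of windows in parentheses), red where the window is a DMR and grey otherwise, with points spread vertically at random. The 9 genes have 0 red points, and the other roles together have 19 in each panel, led by the fall of 26.0 points in Sham.

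Marker windows of other cells moved with OVA as well, and their counts are read against the 22.3% of all windows that fell and the 13.3% that rose in Sham, and the 34.8% and 9.26% in PM. Of 16 windows of 5 eosinophil genes (Epx, Prg2, Ccr3, Siglecf and Il5ra), 9 fell and 0 rose in Sham and 10 fell and 0 rose in PM, with median differences of -4.35 and -4.01 points. Their mean level per library was 68.6 to 70.7% in Sham, 65.5 to 67.6% in Sham-OVA, 69.3 to 71.4% in PM and 65.5 to 66.9% in PM-OVA, without overlap between OVA and control libraries in either arm. Of 84 windows of 7 endothelial genes (Pecam1, Cdh5, Kdr, Tek, Tie1, Egfl7 and Robo4), 6 fell and 39 rose in Sham and 11 fell and 34 rose in PM, and the mean level per library was 64.4 to 67.2% in Sham, 67.1 to 69.6% in Sham-OVA, 63.9 to 68.1% in PM and 67.1 to 69.5% in PM-OVA. For comparison, the mean level over the 72 windows was 69.7 to 71.0% in Sham, 68.8 to 70.1% in Sham-OVA, 70.0 to 71.5% in PM and 68.6 to 70.0% in PM-OVA. Methylation of a marker gene is not a cell count, and the part of changed cell shares in the results for the 9 genes was not tested.

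Across libraries, the mean of the 9 genes varied with the overall level. After the group means were taken away, its Pearson's r with the mean of all windows was 0.826 over the 29 libraries. Of 258431 windows with a value in every library, those outside the 9 genes most like it were in Cyp3a11 (0.846), Tex14 (0.845), Nol4 (0.843), Dph6 (0.841) and Ak5 (0.833), with the within-group Pearson's r over 29 libraries in parentheses, while the median window had an r of 0.258. After OVA, the Cyp3a11 window (a hepatic cytochrome P450) differed by -1.51 points among Sham and by -1.53 among PM offspring, and 2.56 and 1.70 points were found for Dph6. These windows share libraries and overall level with the 9 genes, and the values are a description.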

How the data were processed

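DNA from lung homogenates was converted with the NEBNext Enzymatic Methyl-seq kit. As the protocols describe, the authors trimmed reads with Trim Galore, mapped and called methylation with DRAGEN on GRCm38, and averaged per-base percentages over 100-cytosine windows that overlapped genes in SeqMonk, without a stated normalisation between libraries. The deposited values are a percent per window and library, without counts, so no counting error can be given. From these, log2 ratios of methylated to unmethylated percent (1 point added to both) of 259167 windows with at least 3 values per group (1519 windows left out) were fitted in limma 3.58.1 (R 4.3.3, with data.table version 1.17.8) with 4 groups and 5 contrasts, 2-sided, with Benjamini-Hochberg adjustment over all windows. The 95% intervals come from limma on the percent scale. Because the file holds percentages, a count test as used by the authors was not run.

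The 9 genes, the TCR and marker lists and the rules were chosen with earlier results of these data known. Windows given in full are those at each gene start and those with the largest mean OVA difference per gene, plus the smallest p of the maternal and interaction contrasts. Others were named after their values were seen, and some items are not reported here. Annotation was GENCODE M21, which held the named gene of 252610 of the tested windows, and sequences came from the GRCm38 genome and RefSeq (Python 3.11.15, pandas 2.3.3, pysam 0.24.0, samtools 1.23.1, matplotlib 3.10.9). On simulated data, limma recovered 94 of 100 windows changed by 12 points for OVA in Sham and 96 of 100 for OVA in PM, among 259167 windows, with 0 and 1 false calls. The 200 changed windows all had intermediate mean levels, and the noise was independent between libraries. Recovery at highly methylated windows, or under a level shared by a whole library, was therefore not examined. Smaller changes, as seen in the 9 genes, were not simulated. Alternatives covered the offset, the minimum difference, the p threshold, the missing-value filter, centring of libraries, groups fitted alone, robust moderation, a replicate block and leaving out libraries. For windows given in full they also included differences of medians and an exact permutation test.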

Additional observations from a re-analysis of the deposited data

Results flagged for a closer look

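Of 108 sets of libraries examined, that is each group at the windows given in full and at the gene means, 6 had a single library farther from the rest than Dixon's limit, and chance alone gives about 1 in 20. At the start window of Cd4, PM-OVA replicate 8 had 72.3%, below the 77.7 to 81.0% of the other PM-OVA libraries. Without it the fall in PM was 4.13 points (limma adjusted p = 0.00343). At Cd4 window 5, PM-OVA replicate 1 had 86.4%, above the 79.4 to 82.5% of the rest, and the difference between PM-OVA and Sham-OVA was -2.51 points without it against -1.81 with it. At the start window of Cd6, PM replicate 7 had 71.2%, above the others at 68.8 to 69.8%. At Zap70 window 4, Sham-OVA replicate 7 had 57.6%, below the others at 63.6 to 66.6%. For the mean of Cd3e, PM-OVA replicate 7 had 66.2%, above the others at 60.4 to 62.8%. For the mean of the 9 genes, PM replicate 1 had 69.7%, above the others at 68.2 to 68.7%. Their part in the other results was not tested beyond the values without single libraries.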

How the results depend on the processing

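The count of DMRs among the 72 windows was 0 in all contrasts under every alternative that kept the minimum of 10 points. With a minimum of 5 points there were 4 in Sham and 3 in PM (TCR list 112 and 104 of 655; all windows 5.96 and 5.89%), and without a minimum 35 and 33 (TCR list 319 and 348). With an adjusted p threshold of 1e-06, 0 and 0 windows passed without a minimum difference (all windows 1.14 and 2.12%). Leaving out single libraries gave 29 to 35 windows past the adjusted p in Sham and 31 to 35 in PM, and 18 to 25 and 17 to 20 DMRs in the TCR list. With centred libraries 16 windows fell in PM, against 27. Centring turned the sign of 6 of the 72 differences in Sham and 12 in PM, 0 of which passed either way. Among the windows given in full, the sign turned in differences that did not pass: Cd247 window 16 in PM, 0.704 points with centred libraries, and, when single libraries were left out, Cd3e window 1 in Sham (-0.381 to 1.07 points), Cd3e window 4 in Sham (-1.39 to 0.107 points) and Lck window 1 in PM (-0.134 to 1.16 points). The cause was not tested. Of 1590 comparisons of windows given in full and of splits with an alternative, 1529 kept their direction and side of the threshold, 31 lost and 21 gained significance. Without the libraries PM-OVA_Rel1 and PM-OVA_Rel2, the start window of Zap70 missed the threshold in Sham (limma adjusted p = 0.0527), and an offset of 0.1 points did the same (0.0503).

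Libraries with the same replicate number were not treated as pairs in the main fit. Of 42 such pairs, 1 had a correlation of deviations over 0.1 (median 0.0141, against -0.00227 for other pairs). These values cannot show whether mice share a dam. With the replicate block, 36 windows in Sham and 34 in PM passed, and 0 were DMRs.

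The coverage behind each single percentage is not given with the values. Each window averages about 50 CpGs, so a change at few of them is diluted. T cells are among many cell types in whole lung, their share was not measured here, and expression was not analysed. The number of mice, 7 or 8 per group, limits the precision, as the 95% intervals show.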

Other observations

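Marker lists of further lung cells gave mixed values after OVA. Of all windows, 22.3% fell and 13.3% rose in Sham, and 34.8% fell and 9.26% rose in PM. Of 48 windows of 7 myeloid genes, among them Csf1r and Spi1, 13 fell and 8 rose in Sham and 16 fell and 5 rose in PM, with 2 and 3 DMRs. Of 36 epithelial windows, among them those of Sftpc and Foxj1, 4 fell and 6 rose in Sham and 6 fell and 2 rose in PM. Of 65 mesenchymal windows, among them those of Col1a1 and Pdgfra, 21 fell and 15 rose in Sham and 25 fell and 10 rose in PM. Epithelial and mesenchymal lists held 0 DMRs. Mean levels per library were 72.0 to 73.0% in Sham, 70.5 to 72.6% in Sham-OVA, 72.0 to 73.2% in PM and 71.0 to 71.7% in PM-OVA for the myeloid list, 60.0 to 61.7% in Sham, 60.7 to 62.0% in Sham-OVA, 60.6 to 62.1% in PM and 60.0 to 61.7% in PM-OVA for the epithelial list and 65.3 to 66.7% in Sham, 64.9 to 66.5% in Sham-OVA, 65.4 to 67.3% in PM and 64.8 to 66.0% in PM-OVA for the mesenchymal list.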
